A study of Mus musculus with 6 samples.

Results

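Actb and Tuba1b are the cytoskeletal genes among the transcripts that the array files name. Both were chosen by their probes, CUST_9_PI419532418 for Actb (NM_007393.3) and CUST_1_PI419532418 for Tuba1b (NM_011654.2). They are 2 of 15 genes with a named probe and 2 of 60915 probes that are not controls. Each of these probes was printed as 20 spots on every array. The samples were cultures of C2C12, an established mouse line of muscle precursor cells. The 3 myoblast arrays measured cells in medium with 10% fetal bovine serum, with 80 to 90% confluence listed. The 3 myotube arrays measured cells switched at 80 to 90% confluence to medium with 2% horse serum, in which such cells fuse into multinucleated fibres. The labels used here do not give how long the cells stayed in it. The series describes the replicates as independent experiments, so each array counted as 1 replicate. All 6 cultures share the cell line, and no genetic change is listed for any of them.

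Actb encodes cytoplasmic beta-actin, which forms the microfilaments of the cell cortex, of stress fibres and of migrating cell edges. Muscle fibres build their contractile thin filaments from other actins, encoded by separate genes. Tuba1b encodes an alpha-tubulin, which pairs with beta-tubulin to form microtubules. Proliferating cells need microtubules for the mitotic spindle, and fusing muscle cells rearrange them into arrays along the fibre. Both genes are often used as references to which other transcripts are scaled, and both belong to families of closely related genes. The probes' sequences are not given in the sources used here, so whether they also bind related transcripts, such as those of gamma-actin or the other alpha-tubulins, was not tested.

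RefSeq's promoter table (GRCm38.p6) was searched for both symbols and holds a window for Tuba1b. It is shown as the promoter sequence at hand for a member, and the array data do not bear on it directly. The stretch is the 250 bases before the start, at chr15:98934391-98934640 on the minus strand, written 5′ to 3′ along the gene. The array design refers to an older build, so no array position was set against it. Capitals mark matches to GGGCGG or its reverse complement, the GC box bound by Sp1-type factors.

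Tuba1b: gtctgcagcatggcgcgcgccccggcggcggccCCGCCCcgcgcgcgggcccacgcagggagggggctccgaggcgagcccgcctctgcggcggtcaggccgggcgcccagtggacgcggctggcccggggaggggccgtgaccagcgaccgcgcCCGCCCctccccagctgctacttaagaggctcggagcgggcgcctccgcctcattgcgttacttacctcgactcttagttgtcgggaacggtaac

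Of these bases 75.6% were G or C, against a median of 52.4% over 32851 windows of the same length. Both GC box matches were on the strand opposite to the gene, at positions −217 to −212 and −95 to −90 from the start. A GC box occurred in 32.7% of all windows. TATAAA (12.4% of windows), CCAAT (33.8%) and the CArG box, the site of serum response factor (1.47%), had no match on either strand. These are matches of letters and describe the window alone.

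On the arrays, Actb was high in myoblasts and lower in myotubes. The level given here is the mean log2 processed intensity of the spots that carried no outlier flag, minus the 75th percentile of the array. A level of 0 is therefore the 75th percentile. Actb stood at 6.71, 6.48 and 6.56 on myoblast replicates 1, 2 and 3. On myotube replicates 1, 2 and 3 it stood at 5.93, 5.21 and 5.04. Every myotube array lay below every myoblast array. The means were 6.58 ± 0.12 and 5.39 ± 0.47 (SD, n = 3 each). The log2 change was −1.19 (SE 0.23, 95% interval −1.73 to −0.65), a 2.28-fold fall, with an adjusted p of 0.00488 in limma over all tested probes. The interval corresponds to falls between 1.57-fold and 3.32-fold. An exact permutation test of the same values, two-sided, gave p = 0.1, the smallest that 3 arrays against 3 allow.

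Tuba1b was also lower in myotubes, by less. Its levels were 9.57, 9.36 and 9.41 on myoblast replicates 1, 2 and 3. They were 9.10, 8.93 and 8.58 on myotube replicates 1, 2 and 3. Here too the groups did not overlap. The means were 9.45 ± 0.11 and 8.87 ± 0.26 (SD, n = 3 each). The log2 change was −0.58 (SE 0.15, 95% interval −0.93 to −0.22), a 1.49-fold fall with a limma adjusted p of 0.0171. The exact permutation p, two-sided, was again 0.1. The lack of overlap was not particular to the members. All 3 myotube arrays also lay below all myoblast arrays for the named genes B2m, G6pd2, Gapdh, Gk, Gusb, Hprt, Ldhal6b, Ppia and Rpl13a. Of these, B2m, Gapdh, Gusb and Ppia did not pass in limma. The share of all tested probes without overlap was not counted. In cultures measured whole, fewer cells of a type and less RNA per cell cannot be told apart.

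Both members thus passed the threshold of 0.05, against a background of 50.4% of the 35487 tested probes in either direction and 26.9% in the direction of a fall. A call by itself therefore says little, and the sizes say more. The median change of all tested probes was −0.07. A fall larger than that of Actb was measured for 6.35% of the tested probes, and one larger than that of Tuba1b for 20.1%. The background itself moved with the scaling. With no scaling between arrays 3701 of 13352 called probes were lower, and with the mean of the other 13 named probes as reference 4184 of 19392, against 9559 of 17880 with the 75th percentile. The median change of all tested probes was then 0.22 and 0.31. Relative to the median of all tested probes Actb changed by −1.12 and Tuba1b by −0.51. These relative values are the same for the 3 scalings by construction, since each subtracts 1 value per array from all probes. Under quantile normalization they were −0.97 for Actb and −0.11 for Tuba1b.

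**Figure D1:**
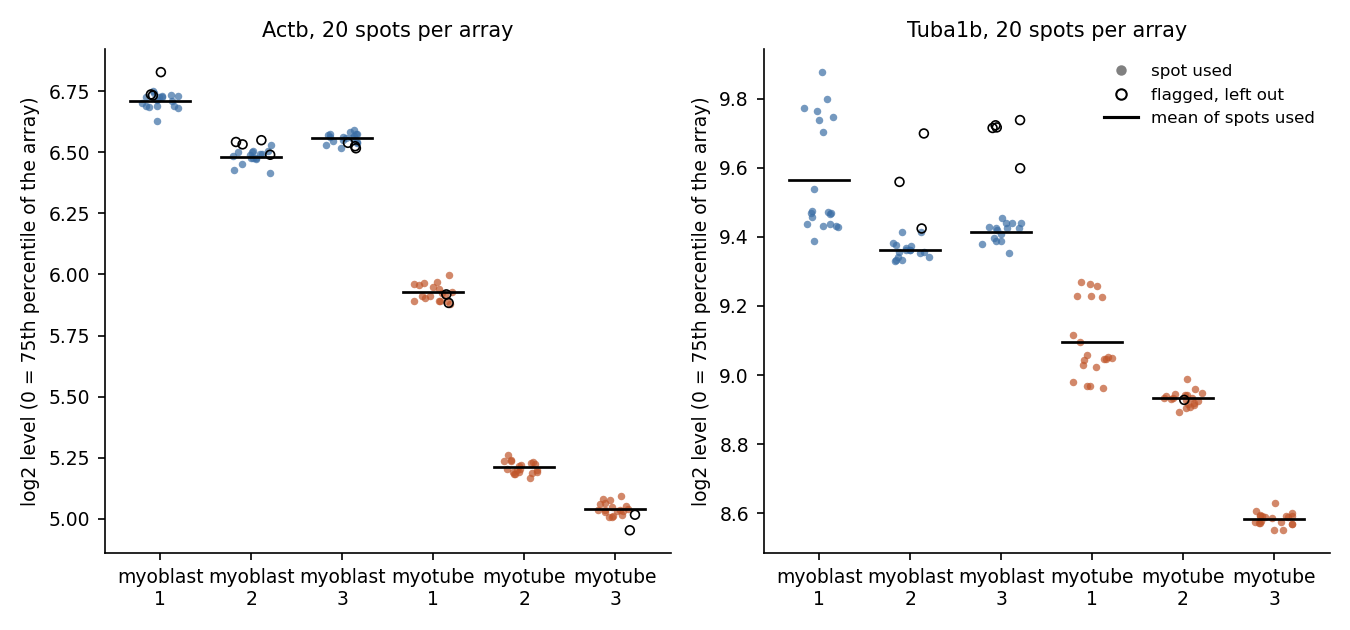
Log2 level (vertical axis, 0 is the 75th percentile of the array) of each of the 20 spots of Actb (left) and Tuba1b (right) on the 3 myoblast arrays (blue) and 3 myotube arrays (orange). Open circles are spots with an outlier flag, which were left out, and bars are the means of the spots used. The Actb spots of each array form a narrow band, whereas Tuba1b has a second, brighter group of spots on the 3 myoblast arrays and on myotube replicate 1.

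The processed intensity, with no scaling, gave the same order of the groups for both members. The geometric mean of its spots was 38143, 33640 and 35260 on myoblast replicates 1, 2 and 3. On the myotube arrays it was 26232, 14121 and 18540. Tuba1b gave 276048, 247808 and 255179 in myoblasts and 235994, 186411 and 216025 in myotubes. All myotube arrays were again below all myoblast arrays. The 75th percentile in log2 units was 8.51, 8.56 and 8.55 on the myoblast arrays and 8.75, 8.58 and 9.14 on the myotube arrays. Scaling therefore lowered myotube replicates 1 and 3 relative to the others. Without it, Actb changed by −0.91 (limma adjusted p = 0.00464), and Tuba1b changed by −0.29, which did not pass (limma adjusted p = 0.332).

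All 120 Actb spots and all 120 Tuba1b spots were well above background, and none was saturated. The median local background lay between 15 and 23 intensity units around Actb spots and between 16 and 26 around Tuba1b spots. Tuba1b was near the top of each array: between 6 and 22 of the 60871 to 60906 probes with a value were brighter. Its brightest spot used reached 44.0% of the scanner's saturation value. For Actb, between 95.6% and 97.9% of probes were dimmer. Under quantile normalization, which replaces each value by the one typical of its rank, Tuba1b changed by −0.14 (limma adjusted p = 0.204). The cause of this smaller change was not tested. Actb kept a change of −0.997 there (limma adjusted p = 0.00320).

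Spots of 1 array are repeats of 1 hybridisation and describe the precision of the array, not of the cultures. The SD over the Actb spots of an array lay between 0.0198 and 0.0337. Actb was lower in myotubes at 19 of the 19 spot positions with a usable spot in both groups, by between 1.02 and 1.46 on the log2 scale. Each position was averaged over the arrays whose spot there was not flagged. The smallest fall was at a position where myotube replicate 3 was flagged, and the largest where myotube replicate 1 was. That range is therefore not a measure of the spots alone. The highest Actb spot used on a myotube array (5.999) was below the lowest used on a myoblast array (6.42). The spread between the myotube cultures, with an SD of 0.47, was many times that between spots, so the number of arrays limits the precision.

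Tuba1b spots were less even. On myoblast replicate 1, 7 of the 20 spots lay between 9.70 and 9.88 and the other 13 between 9.39 and 9.54. On myotube replicate 1, 6 spots lay between 9.23 and 9.27 and the rest between 8.96 and 9.11. On myoblast replicates 2 and 3, 2 and 5 spots stood out in the same way, at 9.56 to 9.70 and 9.60 to 9.74. The bright spots lay at 8 positions in all, and on the 3 myoblast arrays all of them were in array columns 131 to 160. The scanner software flagged all 7 on myoblast replicates 2 and 3, so they were left out. It flagged none on myoblast replicate 1 and myotube replicate 1, where they entered the mean. Neither myotube replicate 2 nor 3 had such spots.

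The uneven spots changed the values of single arrays more than the comparison. With the 8 positions left out on every array, an alternative chosen after the data were seen, Tuba1b stood at 9.46, 9.36 and 9.41 in myoblasts and at 9.02, 8.93 and 8.58 in myotubes. The SD among myoblasts fell from 0.105 to 0.0463. The log2 change became −0.56 (SE 0.14, limma adjusted p = 0.0124). At each of the 20 positions taken singly Tuba1b was lower in myotubes, by between 0.49 and 0.89. The largest of these falls was at a position where myoblast replicates 2 and 3 were flagged. There a bright spot of myoblast replicate 1 alone stood for the myoblasts.

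The myotube arrays differed among themselves more for Actb than for any other named gene. Relative to the myoblast mean, Actb was down by 1.58-fold on myotube replicate 1, 2.59-fold on replicate 2 and 2.91-fold on replicate 3. Its SD of 0.47 in myotubes compares with SDs between 0.120 and 0.311 for the 13 other named genes. Myotube replicate 1 stood 0.80 above the mean of the other myotube arrays for Actb and 0.34 above it for Tuba1b. That gap lay between −0.44 and 0.39 for the 13 others. Among myoblasts, Actb (SD 0.116) and Tuba1b (0.105) also varied more than 12 of the 13 others, whose SDs reached 0.0457. The exception, Ldhal6b, was dim. Without the bright positions the SD of Tuba1b was 0.0463.

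Per the file headers, myotube replicate 1 was scanned together with the 3 myoblast arrays, and myotube replicates 2 and 3 in scans of their own. Fitted with the scan as a block, which leaves the comparison within the shared scan, the change of Actb was −0.66 (SE 0.12, limma adjusted p = 0.0158), and that of Tuba1b −0.35 (SE 0.11, limma adjusted p = 0.0650), which did not pass. These values rest on 1 myotube array, and their spread comes from the myoblasts alone. Without myotube replicate 1 the changes were −1.46 for Actb (limma adjusted p = 0.000114) and −0.69 for Tuba1b (0.00499). For myotube replicates 2 and 3, scan and culture cannot be told apart.

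**Figure D2:**
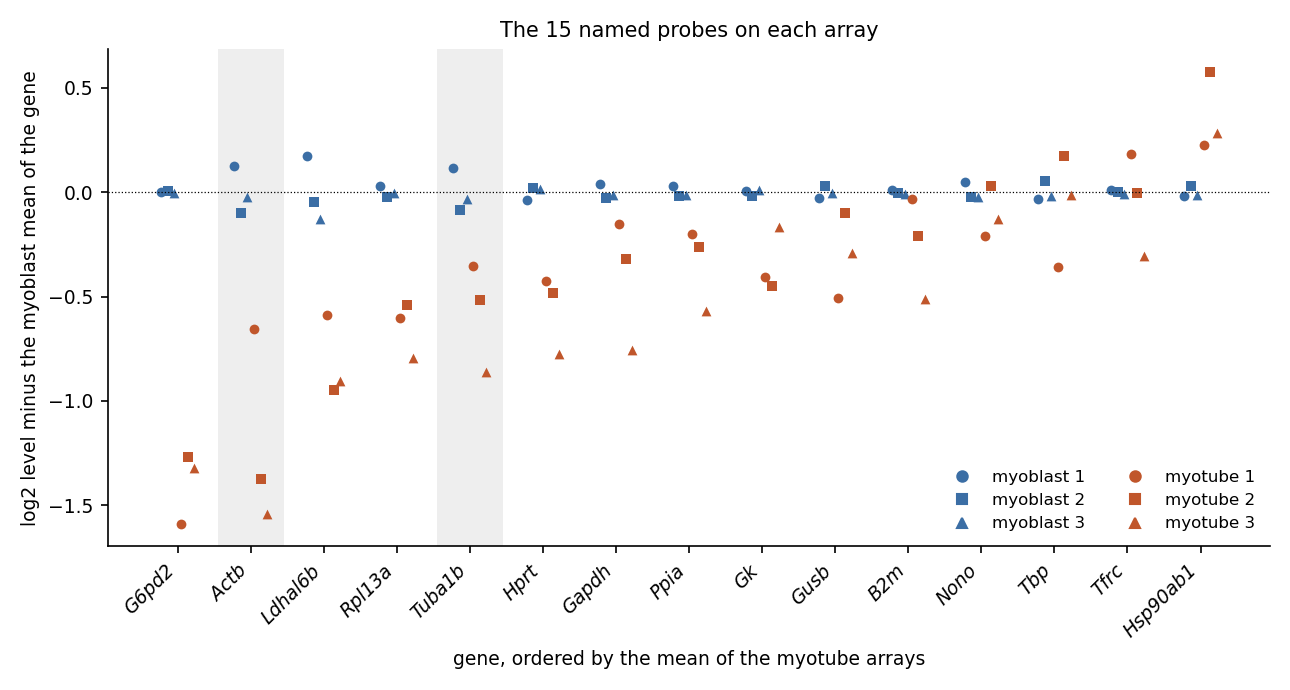
Log2 level minus the gene's own myoblast mean (vertical axis) for the 15 named probes, ordered by the mean of their myotube arrays, with 1 symbol per array (blue myoblasts, orange myotubes, shape for the replicate). Actb and Tuba1b are shaded. Actb has the widest spread of myotube arrays, from −0.66 to −1.54. Tuba1b, from −0.35 to −0.86, comes after G6pd2, Actb, Ldhal6b and Rpl13a in the order.

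The ratio of Actb to Tuba1b within an array is unaffected by any scaling that subtracts 1 value per array. As a log2 difference it was −2.86, −2.88 and −2.86 on myoblast replicates 1, 2 and 3. On myotube replicates 1, 2 and 3 it was −3.17, −3.72 and −3.54. The myoblast values were close together (SD 0.0147), and every myotube array lay below them. The log2 ratio changed by −0.61 (SE 0.19, 95% interval −1.04 to −0.19), so Actb fell 1.53-fold relative to Tuba1b. The limma adjusted p was 0.0218 in a fit of the whole table with each array set to its Tuba1b level, in which 53% of probes passed and 6.96% were lower. The exact permutation p, two-sided, was 0.1. Quantile normalization, which moves probes of an array by unequal amounts, gave a change of −0.86 (limma adjusted p = 0.00574).

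This ratio was less secure than the change of Actb itself. Set the other way, as Tuba1b in a table scaled to Actb, the same difference had a limma adjusted p of 0.0510. There, 79.5% of probes passed and 2.52% were lower. Within the shared scan the ratio changed by −0.31 (limma adjusted p = 0.117). It also missed the threshold when any 1 of the 3 myoblast arrays was left out (limma adjusted p = 0.0727, 0.0684 and 0.0783 without replicates 1, 2 and 3). Leaving out myotube replicate 2 gave a limma adjusted p of 0.0706. The close match among myoblasts rested in part on the bright Tuba1b spots of myoblast replicate 1. Without those positions the myoblast log2 ratios were −2.75, −2.88 and −2.85 (SD 0.0712), and the change was −0.63 (limma adjusted p = 0.0217).

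The same ratios were formed with the 13 other named genes, most of them widely used as references. Over 27 pairs, each fit covered all tested probes, with every array set to its level of the reference gene. Relative to all 14 other named genes, the Actb ratio was lower in 10, higher in none and did not pass in 4. In these 14 fits between 2.51% and 44.7% of probes were lower. The share of lower probes was 13% with B2m as reference, 2.51% with G6pd2, 8.3% with Gapdh, 11% with Gk, 10.1% with Gusb, 8.01% with Hprt and 44.7% with Hsp90ab1. It was 5.2% with Ldhal6b, 18.4% with Nono, 11.6% with Ppia, 7.28% with Rpl13a, 12.5% with Tbp and 19.7% with Tfrc. With Hsp90ab1 as reference a fall was the most frequent outcome, so the call of Actb there says little. Relative to the 13 genes other than Actb, the Tuba1b ratio was lower in 2, higher in 1 and did not pass in 10. Counting both directions, 39.6% of probes passed with B2m as reference, 89.7% with G6pd2, 39.6% with Gapdh, 47.6% with Gk, 44% with Gusb, 58.9% with Hprt and 56.7% with Hsp90ab1. The share was 72.2% with Ldhal6b, 45.5% with Nono, 46.6% with Ppia, 67.3% with Rpl13a, 33.4% with Tbp and 37.5% with Tfrc. Tuba1b passed in 3 of 13 fits, those with Hsp90ab1, Tfrc and G6pd2, in which 56.7%, 37.5% and 89.7% of all probes passed. In each of the 13 fits at least 33.4% of all probes passed, a larger share than 3 of 13.

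Actb fell most relative to Hsp90ab1, a cytosolic chaperone. Its log2 ratio changed by −1.55 (SE 0.28, limma adjusted p = 0.00331, lower on 3 of 3 myotube arrays), in a fit where 44.7% of probes were lower. Relative to Tfrc, the transferrin receptor that brings iron into cells, it changed by −1.15 (SE 0.17, limma adjusted p = 0.00187, 19.7% of probes lower). These log2 ratios were −0.81, −1.03 and −0.95 in myoblasts and −1.77, −2.30 and −2.16 in myotubes. Relative to Gapdh, an enzyme of glycolysis, the change was −0.78 (SE 0.20, limma adjusted p = 0.0122, 8.3% of probes lower). The log2 ratios to Gapdh were −2.61, −2.77 and −2.70 in myoblasts and −3.20, −3.75 and −3.48 in myotubes, with no overlap.

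The other Actb ratios that passed were those to B2m (−0.94), Nono (−1.09), Tbp (−1.12), Gk (−0.85), Ppia (−0.85), Hprt (−0.63) and Tuba1b. Of these the ratio to Tbp, part of the basal transcription machinery, was the narrowest call (limma adjusted p = 0.0481). The ratios to Gusb, a lysosomal enzyme (−0.89, limma adjusted p = 0.0585), and to the ribosomal protein gene Rpl13a (−0.55, 0.0533), did not pass. Nor did that to Ldhal6b (−0.38, limma adjusted p = 0.0947), which was well above background on 3 of the 6 arrays. Relative to G6pd2, a relative of the glucose-6-phosphate dehydrogenase gene, the change was 0.20 (95% interval −0.53 to 0.94, limma adjusted p = 0.546). In 12 of the 14 ratios all 3 myotube arrays lay below all myoblast arrays. How many of all tested probes were separated in this way in the same fits was not counted, so that count has no background beside it. With the scan as a block 6 Actb ratios were lower and 1, that to G6pd2, was higher (0.93, limma adjusted p = 0.00179). The count of 10 was 5 without myoblast replicate 1 and 6 without myoblast replicate 3, myotube replicate 2 or myotube replicate 3. Fewer probes then passed in the fit with no reference gene too. They numbered 13646, 13566, 14869 and 14861 of 35487 in the same order, against 17880 with all arrays.

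The Tuba1b ratios to Hprt, Rpl13a and Gapdh did not pass. These are the 3 genes nearest to Tuba1b by the likeness measure given further below. That measure uses the same 6 arrays, so small changes of these ratios follow from the choice and are no separate result. Relative to Hprt, an enzyme of purine salvage, the Tuba1b log2 ratio changed by −0.02 (95% interval −0.33 to 0.29). It was 2.00, 1.74 and 1.80 in myoblasts and 1.92, 1.81 and 1.76 in myotubes, so the groups overlapped. The change was 0.07 relative to Rpl13a (95% interval −0.23 to 0.36) and −0.17 relative to Gapdh (−0.55 to 0.22). The log2 ratios to Gapdh were 0.25, 0.11 and 0.15 in myoblasts and −0.03, −0.02 and 0.06 in myotubes, with no overlap. The ratios to Tbp (−0.51, limma adjusted p = 0.156), Nono (−0.47, 0.0528), Gusb (−0.28, 0.328), Gk (−0.24, 0.377) and Ppia (−0.23, 0.152) did not pass either. Nor did that to Ldhal6b (0.24, limma adjusted p = 0.237). In 6 of the 13 Tuba1b ratios all 3 myotube arrays lay below all myoblast arrays, again with no count over all tested probes. Under quantile normalization the ratio to Rpl13a rose by 0.31 (limma adjusted p = 0.0412). A ratio within an array compares both transcripts with each other and does not give the change of either.

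Tuba1b fell relative to Hsp90ab1 (−0.94, SE 0.18, limma adjusted p = 0.00455, lower on 3 of 3 myotube arrays) and Tfrc (−0.54, SE 0.13, limma adjusted p = 0.0139, lower on 3 of 3). It rose relative to G6pd2 (0.82, SE 0.21, limma adjusted p = 0.00779, higher on 3 of 3), in a fit where 89.7% of probes passed in either direction. Its log2 ratio to Tfrc was 2.04, 1.85 and 1.91 in myoblasts and 1.40, 1.42 and 1.38 in myotubes. The myotube values lay within 0.05 of each other, and all were below the myoblasts. The ratio to B2m, the light chain of MHC class I, was as tight in myotubes (SD 0.0243), at 1.85, 1.86 and 1.82 against 2.27, 2.09 and 2.15, but its change of −0.33 did not pass (limma adjusted p = 0.0738). Without myotube replicate 1 the count of Tuba1b ratios that passed was 7. More probes passed there in the fit with no reference gene too, 22931 of 35487 against 17880 with all arrays.

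**Figure D3:**
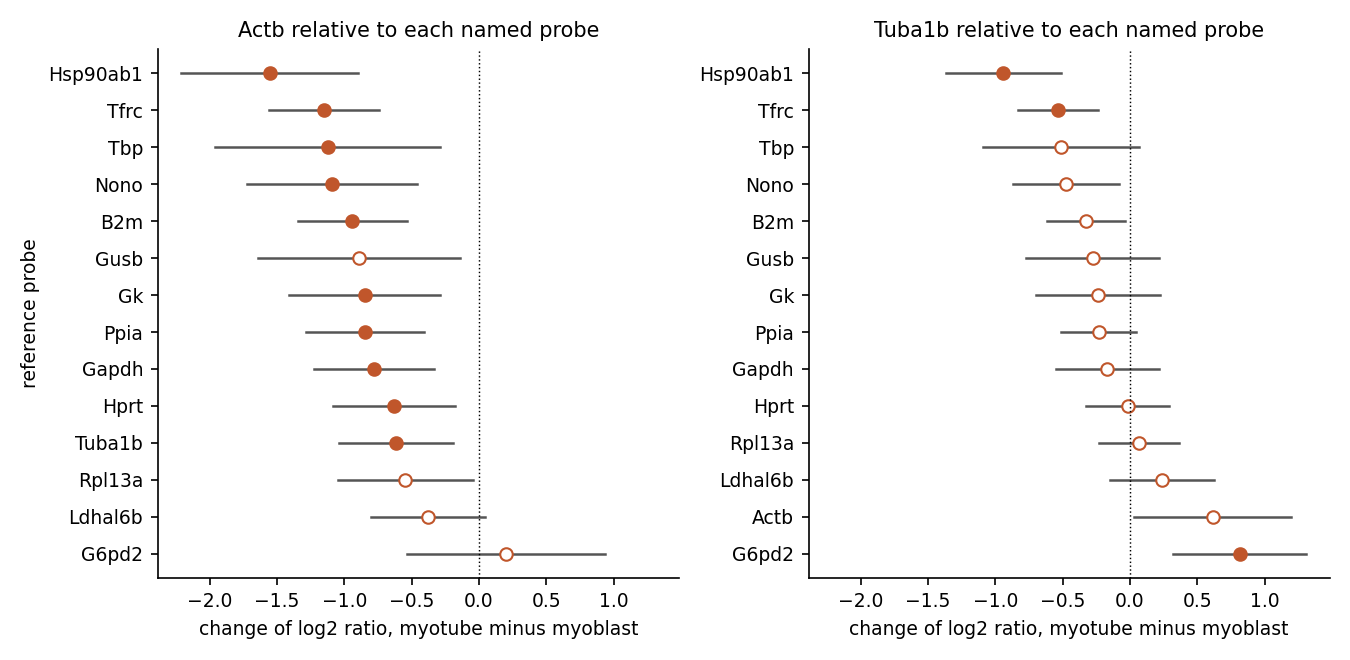
Change of the log2 ratio of Actb (left) and of Tuba1b (right) to each other named probe, myotube minus myoblast, with 95% intervals from limma. Filled points passed an adjusted p of 0.05 over all tested probes. Of the Actb ratios 10 of 14 are filled and lie below 0, whereas most Tuba1b ratios are open.

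With the mean of the other 13 named genes as reference, 19392 of 35487 tested probes passed, 4184 of them lower. Set against that mean, Actb passed and Tuba1b did not. The direct comparison of the members is their ratio, given further above. Actb stood at 1.92, 1.71 and 1.81 above that mean in myoblasts and at 1.52, 0.73 and 0.75 in myotubes, a change of −0.81 (limma adjusted p = 0.0191). Tuba1b stood at 4.78, 4.595 and 4.66 in myoblasts and at 4.69, 4.46 and 4.30 in myotubes, a change of −0.20 that did not pass (limma adjusted p = 0.230). Myotube replicate 1 then lay among the myoblasts for Tuba1b. The 13 genes themselves had a median change of −0.34, with 5 lower, 1 higher and 7 that did not pass. That is 5 of 13 lower, against 26.9% of all tested probes.

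The likeness of the genes was measured as the root mean square difference over the 6 arrays, after each gene was centred on its myoblast mean. Among the 13 others the nearest to Tuba1b were Hprt (0.0929), Rpl13a (0.116) and Gapdh (0.127). For Actb the nearest well above background on all 6 arrays were G6pd2 (0.399) and Rpl13a (0.461). Ldhal6b gave 0.319, but its distance is not firmly measured. It was well above background on 3 of 6 arrays, and its own log2 change of −0.81 became −0.37 with normexp on the median signal and −0.96 without bright spot positions. Actb and Tuba1b differed by 0.464.

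Other genes of the cytoskeleton could not be added, since the files name few probes. Of 20 actin and actin-binding genes listed for comparison Actb alone had a named probe, and of 14 tubulin and microtubule genes Tuba1b alone. None of 16 sarcomere genes had one, so the muscle actins are not set beside Actb here. None of 17 markers of myoblasts, myotubes, fibroblasts and fat cells had one either, so the cell state given by the labels was not checked against markers.

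The size and the call of each change were computed under 22 alternatives. The background moved with them. Of 35487 tested probes 23306 passed with array weights and 13646 without myoblast replicate 1, and without the filter 14457 of 60915 passed. Settings that altered only the filter, the variance estimate or the replicate block could change a call but not a log2 change. Actb fell and passed in each of the 22 alternatives, with log2 changes from −0.66 to −1.46 and limma adjusted p-values up to 0.0220. Tuba1b fell in each of them, from −0.14 to −0.74, and passed in 16. It missed the threshold under quantile normalization, with no scaling, with the 13 other genes as reference, without the filter on dim probes (limma adjusted p = 0.0577), within the shared scan, and without myoblast replicate 1 (−0.52, limma adjusted p = 0.0644).

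**Figure D4:**
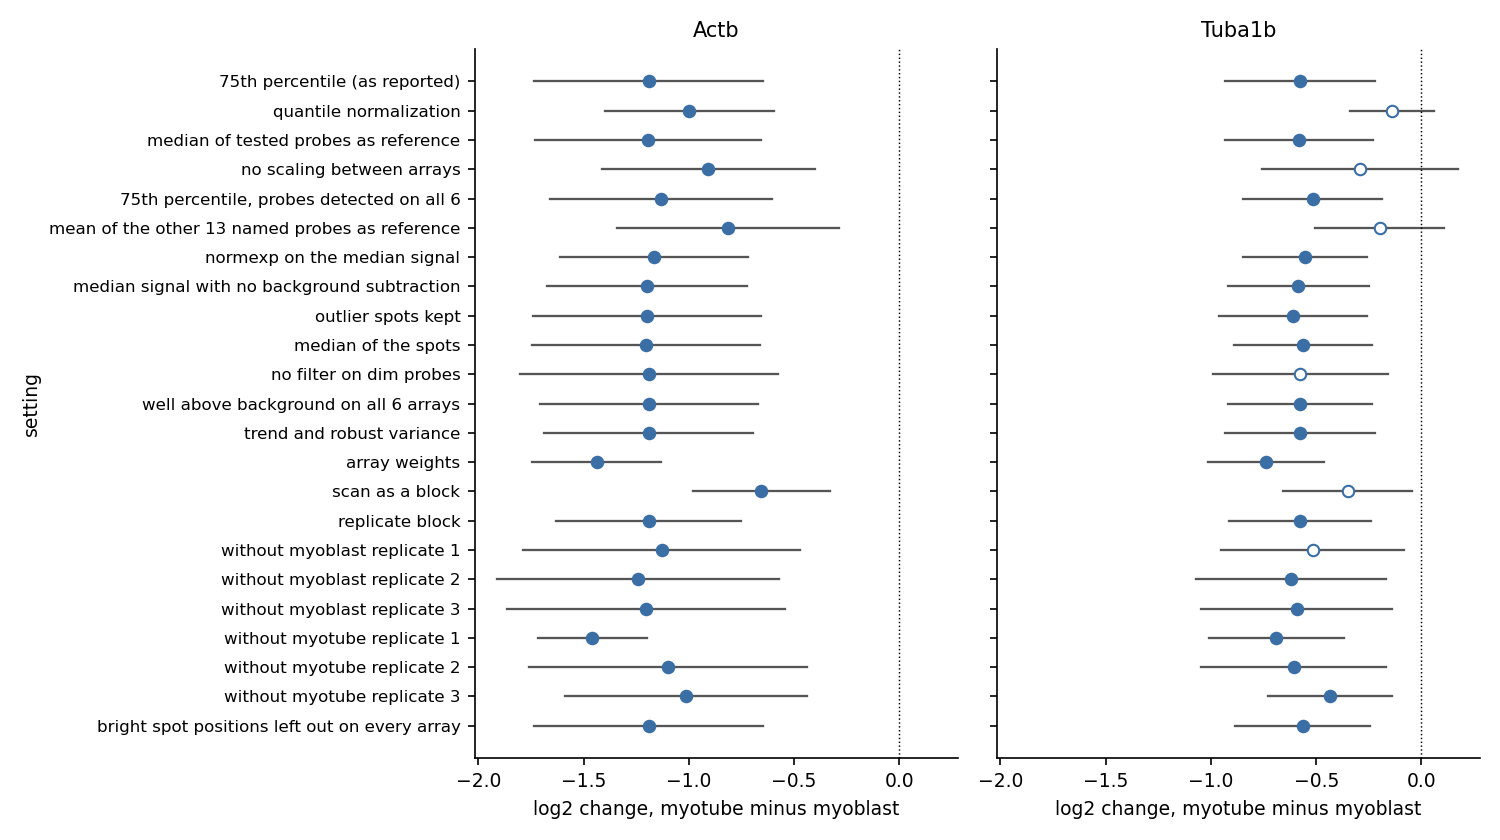
Log2 change of Actb (left) and Tuba1b (right), myotube minus myoblast, with 95% intervals from limma, as reported (top) and under 22 alternatives. Filled points passed an adjusted p of 0.05. All Actb points are filled and lie between −0.66 and −1.46, whereas 6 Tuba1b points are open and come as near to 0 as −0.14. Settings that altered only the filter, the variance estimate or the replicate block could not move a point, only its interval and its call. Leaving out bright spot positions could not move Actb, which had none.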

How the data were processed

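Each of the 6 deposited scanner files holds 1-colour intensity values for 62939 spots. Per the file headers, the authors extracted them in version 11.0.1.1 of Agilent's Feature Extraction, with local background subtraction. Per the labels, RNA was freed of ribosomal RNA, amplified with random primers and labelled with Cy3. A scaling between arrays by the authors is not stated there. The deposited series table has no value for the named probes and was not used.

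The deposited intensity was taken as log2, and spots flagged as non-uniform or population outliers and control spots were left out. Each probe's spots were averaged, and each array was centred on its 75th percentile. Testing was limited to 35487 probes, those measured well above background on 3 or more of the 6 arrays (for a probe of several spots, on 50% or more of them), with lmFit and eBayes of limma 3.58.1 (R 4.3.3), Benjamini-Hochberg adjusted over all of them. For ratios, the level of the reference gene was subtracted from all probes before the same fit. Exact permutation tests used scipy 1.17.1. The steps were tested on simulated data. Accessions were named through RefSeq (GRCm38.p6), where all 15 matched. The members, lists and alternatives were chosen with earlier results of these data known. Text values follow a rule: both members in full, the other 13 named genes for ratios, and the 3 nearest by likeness. Replicate numbers were not used as pairs in the main fit. Deviations of same-numbered arrays from their group means correlated at −0.15, −0.00 and −0.09. With 3 arrays per group, and myotube replicates 2 and 3 in scans of their own, these values cannot show whether the cultures were paired.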

Additional observations from a re-analysis of the deposited data

How the results depend on the processing

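Of 22 alternatives, the Tuba1b change missed the threshold in 6: quantile normalization (−0.14), no scaling (−0.29), the other 13 genes as reference (−0.20), no filter on dim probes (−0.58), the scan as a block (−0.35) and, among the arrays left out in turn (−0.69 to −0.43), without myoblast replicate 1. Leaving out arrays gave −1.46 to −1.02 for Actb. The Actb to Tuba1b ratio missed it without the filter (−0.61), with the scan as a block (−0.31) and without myoblast replicate 1, 2 or 3 or myotube replicate 2 (range over the arrays left out −0.77 to −0.49). The count of changed Actb ratios (10) was 5 without the filter, 7 with the scan as a block (6 lower, 1 higher) and 5 to 13 with an array left out. That of Tuba1b (3) was 5 under quantile normalization, 5 with trended, robust variance, 9 with array weights, 5 without the bright spot positions, and 2 to 7 with an array left out. Its only count above 7 came from array weights. In the fit with no reference gene 23306 of 35487 probes passed with array weights and 22931 without myotube replicate 1. Without the filter 14457 of 60915 passed, against 17880 of 35487 in the main fit. The causes were not tested.

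With the replicate block Actb changed by −1.19 (limma adjusted p = 0.00506), Tuba1b by −0.58 (0.0205) and their ratio by −0.61 (0.0367), so none of these calls changed, and 16538 probes passed in place of 17880. No myoblast array correlated best with the myotube array of its own number. The planned use of the mean spot signal was not run, since the files used here carry the median signal. The median signal was taken instead, with normexp and without background subtraction, an alternative chosen after the data were seen. The number of arrays limits the precision.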

Other observations

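The outlier flags fell unevenly on the members' spots. For Actb 14 of 120 spots were flagged, 10 on myoblast and 4 on myotube arrays, and 7 of them lay above the mean of the spots used on their array. For Tuba1b 9 of 120 were flagged, 8 on myoblast and 1 on myotube arrays, and 8 of them lay above that mean. With flagged spots kept, the log2 change was −1.198 for Actb and −0.61 for Tuba1b. Spots over 0.15 above the median of their probe on the array, the measure used for Tuba1b, also occurred for Ppia on the same 4 arrays, with 4, 2 and 3 spots on myoblast replicates 1, 2 and 3 and 5 on myotube replicate 1. The dim probes Gk (3 to 7 spots) and Ldhal6b (3 to 8) had them on all 6 arrays. Gapdh, G6pd2, Nono, Tbp and Tfrc had 1 or 2 on some arrays, and Actb had none.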
